A study of Homo sapiens with 6 samples.

Results

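The genes described here encode the enzymes that build cholesterol and fatty acids, together with the proteins that switch those enzymes on. They were taken from a list of 34 genes, of which 31 had a transcript cluster (the array's unit for 1 gene) naming that gene alone and were tested, out of 22375 genes tested in all. FDFT1, FADS1 and ACSL3 were not tested. The 31 fall into 4 classes: the SREBP machinery (5 genes), the early sterol steps from acetyl-CoA to farnesyl diphosphate (7), the late sterol steps with a sterol carrier (9) and fatty acid synthesis (10). The RNA was that of PC3-ML, a human prostate cancer line derived from PC-3 for its spread to other organs. A control group of 3 arrays had received the DMSO vehicle and a treated group of 3 arrays had received 500 nM PD 0332991 in DMSO, both for 24 h. PD 0332991, or palbociclib, inhibits the kinases CDK4 and CDK6, which act on the retinoblastoma protein, and the series title asks about re-activating that protein. All 6 samples were the same cell line grown with serum, and nothing in the labels tells whether replicates were grown apart. The p-values therefore reflect the spread of these samples alone, and that spread may be technical.

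Cells make cholesterol from acetyl-CoA in a long chain of enzymes, and fatty acids from the same starting material. Transcription of both sets is driven by the sterol regulatory element binding proteins (SREBPs), encoded by SREBF1 and SREBF2. The SREBPs are held in the endoplasmic reticulum with SCAP, their sterol-sensing escort, by the INSIG anchors when sterols are plentiful. When sterols fall, SCAP carries them to the Golgi, where proteases release the part that enters the nucleus. Prostate cancer cells are known for active lipid synthesis, and fatty acid synthase is among its best-known enzymes there.

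Promoter windows of the genes the results turn on are shown here, to let the reader see the boxes on which the SREBPs and their partner NF-Y are known to act. Each window runs from 250 bases before to 50 bases after a RefSeq start, in build GRCh38.p14, and is printed 5′ to 3′ on the gene's strand. Capitals mark the NF-Y box (CCAAT, or ATTGG where it lies on the opposite strand) and the sterol regulatory element (TCACNCCAC). TM7SF2 (chr11:65111622-65111921, plus strand), MSMO1 (chr4:165327419-165327718, plus strand) and FDPS (chr1:155308616-155308915, plus strand) had the largest changes among the genes past the threshold that had a window. INSIG1 (chr7:155297628-155297927, plus strand) and HMGCS1 (chr5:43313363-43313662, minus strand) are well-known SREBP targets, and SREBF2 (chr22:41832855-41833154, plus strand) was added after the search because it held the sterol regulatory element.
TM7SF2: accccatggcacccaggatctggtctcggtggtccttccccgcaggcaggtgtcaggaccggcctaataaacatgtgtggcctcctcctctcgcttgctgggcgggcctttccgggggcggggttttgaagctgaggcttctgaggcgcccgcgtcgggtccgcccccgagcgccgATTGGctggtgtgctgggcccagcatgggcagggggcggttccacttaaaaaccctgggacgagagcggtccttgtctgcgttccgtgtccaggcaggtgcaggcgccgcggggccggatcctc
MSMO1: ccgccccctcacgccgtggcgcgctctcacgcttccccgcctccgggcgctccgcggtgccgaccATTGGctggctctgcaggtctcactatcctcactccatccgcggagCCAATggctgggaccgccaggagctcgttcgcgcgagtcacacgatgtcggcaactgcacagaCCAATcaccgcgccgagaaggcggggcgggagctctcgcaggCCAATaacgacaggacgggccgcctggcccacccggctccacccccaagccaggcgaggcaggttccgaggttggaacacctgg
FDPS: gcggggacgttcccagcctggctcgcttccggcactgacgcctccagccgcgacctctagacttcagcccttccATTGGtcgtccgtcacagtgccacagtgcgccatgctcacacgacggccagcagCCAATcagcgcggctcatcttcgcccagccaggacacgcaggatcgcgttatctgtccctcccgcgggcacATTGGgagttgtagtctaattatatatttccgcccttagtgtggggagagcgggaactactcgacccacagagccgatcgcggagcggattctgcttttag
INSIG1: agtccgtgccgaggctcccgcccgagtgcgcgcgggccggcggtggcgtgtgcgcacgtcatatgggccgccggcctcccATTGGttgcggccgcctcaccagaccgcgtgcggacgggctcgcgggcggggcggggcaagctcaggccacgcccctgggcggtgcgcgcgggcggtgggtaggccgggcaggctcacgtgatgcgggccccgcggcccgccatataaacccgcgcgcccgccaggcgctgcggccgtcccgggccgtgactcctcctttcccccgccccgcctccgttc
HMGCS1: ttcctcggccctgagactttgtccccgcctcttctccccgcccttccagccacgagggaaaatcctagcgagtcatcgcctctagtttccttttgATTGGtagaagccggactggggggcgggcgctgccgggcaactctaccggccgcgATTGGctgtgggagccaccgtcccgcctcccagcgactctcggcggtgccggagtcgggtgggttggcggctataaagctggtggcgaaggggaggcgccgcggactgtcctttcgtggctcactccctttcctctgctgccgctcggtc
SREBF2: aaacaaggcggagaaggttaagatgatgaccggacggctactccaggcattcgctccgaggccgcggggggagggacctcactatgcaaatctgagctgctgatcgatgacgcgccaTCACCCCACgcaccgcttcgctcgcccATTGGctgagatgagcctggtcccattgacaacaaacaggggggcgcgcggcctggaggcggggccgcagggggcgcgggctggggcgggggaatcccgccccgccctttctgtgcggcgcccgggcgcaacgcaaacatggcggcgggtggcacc

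Of the 31 genes, 28 had 1 or more windows in the table, 39 windows in all. The NF-Y box was found on either strand in 64.1% of these 39 windows, against 34.6% of all 35116 windows and 35.5% of the 12049 windows of genes at or above the median level. MSMO1 held 4 such boxes, FDPS 3, the printed HMGCS1 window 2, and TM7SF2, INSIG1 and SREBF2 1 each. Of the genes past the threshold below, 5 of 6 with a window held an NF-Y box, and so did 16 of the 22 that did not pass. The Sp1 box (GGGCGG) was present in 87.2% of the 39 windows, against 66.8% for genes at or above the median level. The sterol regulatory element occurred in 1 of the 39 windows, that of SREBF2, at position -133 from the start, and in 1.13% of all windows. The E-box (CACGTG) was in 15.4% of the 39 windows, those of 5 of the 28 genes, against 7.26% of all windows and 9.42% for genes at or above the median level. An E2F site (TTTGGCGC, TTTCCCGC, TTTGGCGG or TTTCGCGC) was in 10.3%, those of ACACA, INSIG2 and MVK, against 3.35% and 5.28%. Windows of the same gene can overlap, so a site can be counted more than once in these shares. This was so for NF-Y boxes of SC5D and ACLY, Sp1 boxes of INSIG2 and ACLY, the INSIG2 E2F site and the SC5D E-box. Matches of different motifs overlapped in 2 genes, ELOVL1 and MVK. These are matches of letters within a short window and do not show that a factor binds. Nor does a missing match show that a gene lacks the element, since only these letters and this stretch were searched. INSIG1 and HMGCS1, named above as SREBP targets, had no match to the sterol regulatory element.

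Of the 31 synthesis genes, 7 passed the threshold. Values are log2 expression levels as deposited, changes are PD 0332991 minus DMSO on the log2 scale, and rose or fell is used for genes with a limma p adjusted over all genes under 0.05. In the early sterol steps, ACAT2 fell 1.80-fold and FDPS 1.24-fold and no gene rose. In the late sterol steps, TM7SF2 rose 1.56-fold, MSMO1 1.25-fold and SC5D 1.21-fold and no gene fell. In fatty acid synthesis, the desaturase SCD rose 1.20-fold and the acetoacetyl-CoA synthetase AACS 1.18-fold. In the SREBP machinery none of the 5 genes passed the threshold.

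Over the 4 classes, 5 of 31 synthesis genes rose, 2 fell and 24 did not pass. The 7 called are 22.6% of the 31, beside a background of 11.3% of all genes tested, where 5.57% rose and 5.74% fell. All 31 lay at or above the median level of all genes. Among all genes at or above that median 21.3% were called, 10.3% higher and 11.0% lower. The share of synthesis genes called was near the share in that set. No closer match on level was made. The median change of the 31 was 0.084, against 0.021 over all genes tested. The groups did not overlap for 14 genes that were higher and 4 that were lower with PD 0332991. Together these are 18 of 31. Over genes at or above the median level 45.8% did not overlap (24.4% higher, 21.5% lower), and over all genes 29.9% (17.2% higher, 12.6% lower). At a threshold of 0.1, 9 synthesis genes were called higher and 2 lower, beside 15.8% of all genes (8.42% higher, 7.38% lower). The share at 0.1 among genes at or above the median level was not computed, so no excess can be read from these counts. These counts depended on which scaling was used. With each array centred on its median, 1 synthesis gene (TM7SF2) was called higher and 2 lower. Over all genes the share of calls that were higher was then 37.5%, compared with 49.3% as deposited. With quantile normalization between arrays, 6 synthesis genes were called higher and 2 lower, and 54.2% of the calls over all genes were higher. With any single array left out, 1 or 2 synthesis genes were called higher and the 2 lower calls stood.

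**Figure D1:**
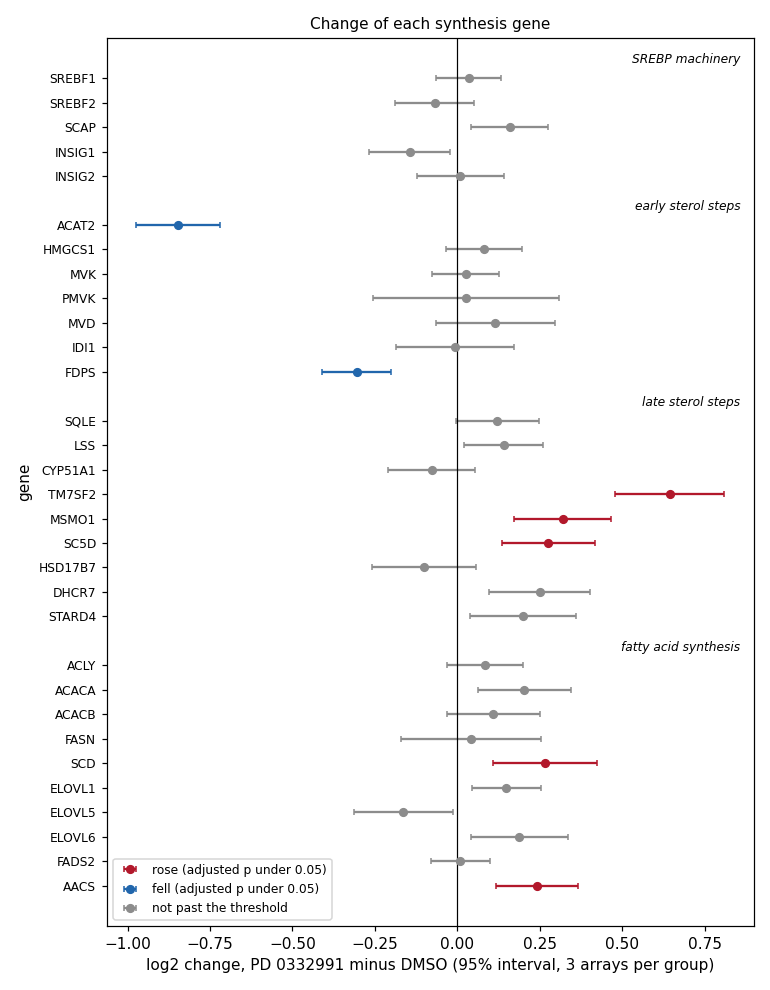
Log2 change with PD 0332991 (x axis, with its 95% interval, 3 arrays per group) for each of the 31 synthesis genes (y axis), grouped by class. ACAT2 (-0.85) and FDPS (-0.31) lie to the left in the early sterol steps, TM7SF2 (0.64), MSMO1 (0.32) and SC5D (0.28) to the right in the late steps, and 3 of 5 intervals of the SREBP machinery cross 0.

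In the same arrays the division markers MKI67, CCNA2, CDK1 and TOP2A fell 9.64-fold to 22.4-fold. Correlations between arrays, taken across genes, which are not independent replicates, ranged from 0.998 to 0.999 within a group and from 0.994 to 0.995 between groups. The cells carried high levels of the epithelial keratins KRT8, KRT18 and KRT19 (DMSO means 11.31, 11.20 and 12.23). The other epithelial markers lay lower, KRT7 at 8.34, EPCAM at 6.83 and CDH1 at 6.49. KLK3 and KLK2, secreted by luminal prostate cells, lay below the median level of all genes, 5.35, at 4.38 and 3.41, as did TMPRSS2 at 5.08. HOXB13, a transcription factor of prostate epithelium and the other luminal marker tested, lay at 10.41 in DMSO and 10.64 with PD 0332991, higher on every treated array but not past the threshold (0.23, limma adjusted p = 0.0780). All 6 adipocyte and hepatocyte markers lay below that median, with DMSO means from 3.24 to 4.59, and none passed the threshold. Of the leukocyte markers 1 of 5 rose (CD68, 0.28) and of the fibroblast markers 1 of 5 (COL1A1, 0.19). Of the epithelial markers 3 of 6 rose (KRT19 by 0.41, KRT8 by 0.31 and KRT7 by 0.30). Over all genes 5.57% rose, and among genes at or above the median level 10.3%. The calls of KRT19 and KRT7 stood whichever array was left out, and those of KRT8, CD68 and COL1A1 did not. PTPRC, the defining leukocyte marker, CD3E, CD14 and ITGAM lay between 3.85 and 4.44 in DMSO, while CD68 lay at 11.33. Among the fibroblast markers LUM, DCN and COL1A2 lay between 4.03 and 4.44, while COL1A1 lay at 6.22 and PDGFRA at 9.29. The part of the fall in dividing cells in any result below was not tested. In bulk RNA a change in the number of cells that express a gene and a change in RNA per cell cannot be told apart.

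No gene of the SREBP machinery passed the threshold. SREBF1 read 5.67, 5.70 and 5.66 on the DMSO arrays and 5.72, 5.68 and 5.75 on the PD 0332991 arrays. The groups overlapped, and the change of 0.034 had a 95% interval from -0.065 to 0.13 (limma adjusted p = 0.701). SREBF2 read 6.15, 6.25 and 6.15 with DMSO and 6.07, 6.11 and 6.18 with PD 0332991, again overlapping (-0.068, interval -0.19 to 0.052). The difference between the changes, SREBF1 minus SREBF2, was 0.10 with an interval from 0.0042 to 0.20. SREBF1 gives rise to alternative forms of its protein from different promoters, which a single level per gene does not separate.

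SCAP had 7.44, 7.57 and 7.49 in DMSO and 7.65, 7.69 and 7.64 with the drug. All treated arrays lay above all controls, but the change of 0.16 (interval 0.043 to 0.27) did not pass the threshold (limma adjusted p = 0.0939). Among the alternative fits, SCAP was called only with genes below the median level left out. INSIG1, an anchor whose own gene is an SREBP target, had 7.03, 6.99 and 6.96 in DMSO and 6.87, 6.77 and 6.91 with the drug. Here all treated arrays lay below all controls, with a change of -0.14 (interval -0.27 to -0.022) that did not pass either (limma adjusted p = 0.140). INSIG2, its relative, had a change of 0.0093 (interval -0.12 to 0.14). INSIG1 minus INSIG2 was -0.15, with an interval from -0.32 to 0.016. Every one of the 5 intervals of this class lay within a 1.3-fold change in either direction.

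Among the early sterol steps, ACAT2 stood out. It encodes the cytosolic thiolase that joins a pair of acetyl-CoA molecules to acetoacetyl-CoA, ahead of HMGCS1. ACAT2 read 9.44, 9.54 and 9.60 on the DMSO arrays and 8.71, 8.64 and 8.68 on the PD 0332991 arrays. The groups were separated by more than their own ranges, and the change was -0.85 ± 0.053 (SE, n = 3 per group, interval -0.97 to -0.72, limma adjusted p = 0.000124). With any single array left out it ranged from -0.89 to -0.81, with a limma adjusted p of at most 0.00151. In the RefSeq table ACAT2 overlaps TCP1, SOD2 and SOD2-OT1, none of which was tested here, and the share of its signal that could come from an overlapping transcript was not tested.

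HMGCS1, the next enzyme and a classical SREBP target, read 8.18, 8.14 and 8.23 with DMSO and 8.24, 8.23 and 8.33 with PD 0332991. The groups overlapped narrowly, and its change of 0.079 had an interval from -0.036 to 0.19. The change of ACAT2 minus that of HMGCS1 was -0.93 (interval -1.08 to -0.77), with a two-sided exact permutation p of 0.1, the lowest that 3 arrays per group allow. The kinases MVK and PMVK and the decarboxylase MVD, which turn mevalonate into isopentenyl diphosphate, did not pass. Their changes were 0.025 for MVK (interval -0.078 to 0.13), 0.025 for PMVK (-0.26 to 0.31) and 0.12 for MVD (-0.065 to 0.30). PMVK had the largest standard error of the 31, 0.119, with DMSO values of 8.24, 8.51 and 8.28 and treated values of 8.57, 8.15 and 8.38. MVK overlaps MMAB, whose change of 0.091 did not pass.

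IDI1, the isomerase of isopentenyl diphosphate, read 6.59, 6.62 and 6.46 with DMSO and 6.44, 6.53 and 6.68 with the drug. The groups overlapped fully, with a change of -0.0082 (interval -0.19 to 0.17). IDI1 overlaps WDR37, which rose by 0.20 (limma adjusted p = 0.0396). FDPS, which makes the farnesyl diphosphate used for sterols and for prenylated proteins, read 8.83, 8.89 and 8.82 with DMSO and 8.57, 8.50 and 8.55 with the drug. All treated arrays lay below all controls, and FDPS fell by 0.31 on the log2 scale (SE 0.045, interval of the change -0.41 to -0.20, limma adjusted p = 0.00624). With any single array left out its limma adjusted p stayed between 0.0196 and 0.0301. With all transcript clusters of the table fitted, a larger family of tests, the limma adjusted p of FDPS was 0.0552. FDPS minus IDI1 was -0.30, with an interval from -0.53 to -0.064. The RUSC1-AS1 transcript that overlaps FDPS had a change of 0.0012 (limma adjusted p = 0.993).

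**Figure D2:**
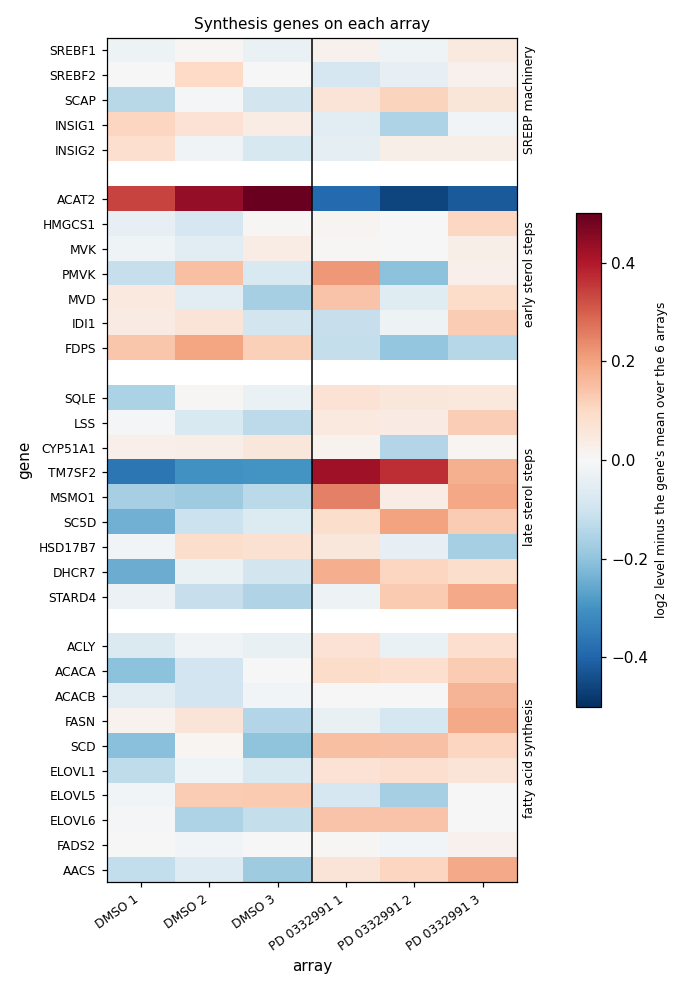
Level of each of the 31 synthesis genes (rows, by class) on each of the 6 arrays (columns), as the log2 level minus the gene's mean over all arrays; red is higher and blue lower, and the line parts DMSO from PD 0332991. ACAT2 and FDPS go from red to blue, TM7SF2 and 6 other late sterol genes go from lower to higher without overlap, and PMVK and IDI1 vary within each group.

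Of 9 late sterol genes tested, 3 rose, and 7 were higher on every treated array than on any control. CYP51A1 was lower without overlap, but narrowly (lowest control 11.269, highest treated array 11.263), and HSD17B7 overlapped. The class median was 0.20. Among genes at or above the median level 10.3% were called higher. In that set 24.4% were higher without overlap and 21.5% lower without overlap. The difference between the early and the late steps was not tested as a class. TM7SF2, a sterol reductase that acts on the product of CYP51A1, had the largest change. It read 8.09, 8.15 and 8.16 with DMSO and 8.88, 8.82 and 8.63 with PD 0332991. The lowest treated array lay well above the highest control, and the change was 0.64 ± 0.069 (SE, n = 3 per group, interval 0.48 to 0.81, limma adjusted p = 0.00172). The call stood whichever array was left out, with a limma adjusted p of at most 0.0103.

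The same reduction can be carried out by the lamin B receptor, LBR, a protein of the inner nuclear membrane with its own sterol reductase domain. LBR read 7.62, 7.66 and 7.60 with DMSO and 7.12, 7.14 and 7.08 with the drug, and so moved the opposite way to TM7SF2. It fell by 0.51 on the log2 scale (interval of the change -0.61 to -0.42, limma adjusted p = 0.000461), and the intervals of these 2 genes lie on opposite sides of 0. The call of LBR also stood with any array left out, with a limma adjusted p of at most 0.0041. Setting this pair side by side was done after the values were seen, so their difference was not tested.

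MSMO1, the oxidase that removes methyl groups from sterol intermediates, read 9.29, 9.28 and 9.33 with DMSO and 9.71, 9.50 and 9.65 with the drug. The treated values were higher and more spread than the controls. MSMO1 rose by 0.32 ± 0.062 (SE, n = 3 per group, limma adjusted p = 0.0191). The call was lost without DMSO replicate 1, 2 or 3 or PD 0332991 replicate 1 or 3, with a limma adjusted p up to 0.0714, and was kept without PD 0332991 replicate 2. SC5D, the desaturase next to last in the pathway, read 8.58, 8.71 and 8.75 with DMSO and 8.91, 9.02 and 8.95 with the drug. The groups did not overlap, and SC5D rose by 0.28 ± 0.060 (SE, n = 3 per group, limma adjusted p = 0.0292). Its call was kept only without DMSO replicate 3, and the limma adjusted p reached 0.0927 without PD 0332991 replicate 2. With each array centred on its median neither gene passed, at 0.0504 for MSMO1 and 0.0510 for SC5D.

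DHCR7, which carries out the final reduction to cholesterol, was just outside the threshold. It read 11.01, 11.22 and 11.16 with DMSO and 11.44, 11.36 and 11.34 with the drug, without overlap. The change was 0.25 with an interval from 0.095 to 0.40 (limma adjusted p = 0.0556), and quantile normalization between arrays gave 0.31 with a limma adjusted p of 0.0292. SC5D minus DHCR7, adjoining steps, was 0.027, with an interval from -0.15 to 0.21. STARD4, a carrier that moves cholesterol between membranes, had 7.04, 6.96 and 6.92 in DMSO and 7.05, 7.21 and 7.27 with the drug. Its groups were separated by very little, and the change of 0.20 (interval 0.038 to 0.36) did not pass.

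None of the remaining late sterol enzymes passed the threshold. SQLE, squalene epoxidase, which controls flux into the late steps, went from a DMSO mean of 10.88 ± 0.087 to 11.01 ± 0.010 (SD, n = 3 each). Its change of 0.12 had an interval from -0.0052 to 0.25. LSS, lanosterol synthase, had a change of 0.14 (interval 0.021 to 0.26, limma adjusted p = 0.141). CYP51A1, the lanosterol demethylase, went from 11.28 ± 0.016 to 11.20 ± 0.092 (SD, n = 3 each), a change of -0.077 with an interval from -0.21 to 0.054. HSD17B7, a sterol ketone reductase, had a change of -0.10 (interval -0.26 to 0.058). No interval of these 4 reached a 1.3-fold change.

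**Figure D3:**
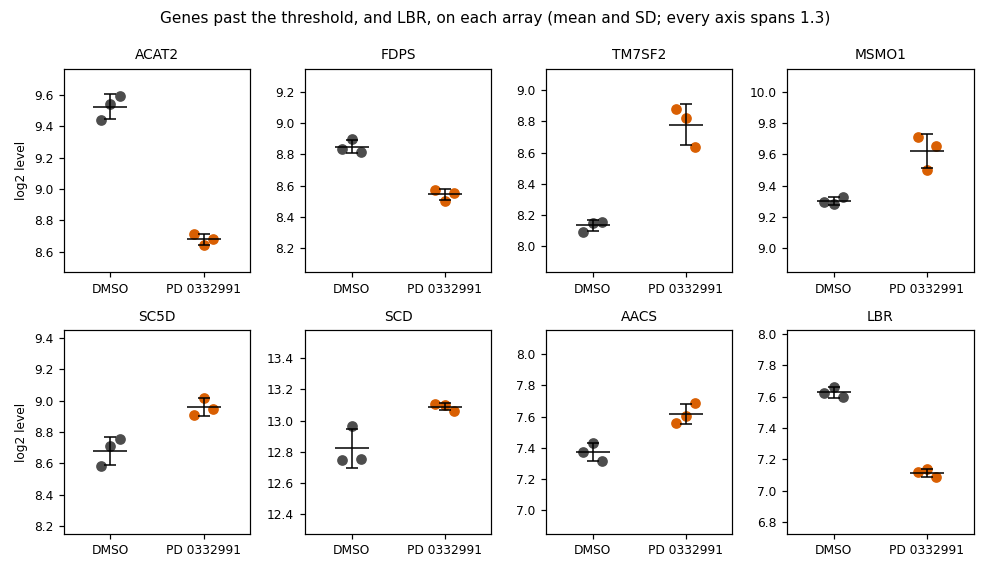
Log2 level on each array (points) with mean and SD (bars) for the 7 synthesis genes past the threshold and for LBR, with DMSO and PD 0332991 side by side; every y axis spans the same range. ACAT2, FDPS and LBR are lower and TM7SF2, MSMO1, SC5D, SCD and AACS higher with PD 0332991, and the separation is widest for ACAT2 and TM7SF2.

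Of 10 fatty acid synthesis genes tested, 2 rose, none fell and 8 did not pass, beside 10.3% called higher among genes at or above the median level and 5.57% of all genes. The class median was 0.13, and 6 genes were higher without overlap, beside 24.4% and 17.2% of those genes. SCD, which makes monounsaturated fatty acids, read 12.75, 12.96 and 12.75 with DMSO and 13.10, 13.10 and 13.06 with the drug. The treated arrays were tightly grouped above the controls, of which the second lay closest. SCD rose by 0.27 ± 0.066 (SE, n = 3 per group, limma adjusted p = 0.0478). Its call was kept only without DMSO replicate 2 (limma adjusted p = 0.0146), and elsewhere the limma adjusted p reached 0.138, without DMSO replicate 1 or 3. AACS, which activates acetoacetate for lipid synthesis, had 7.37, 7.43 and 7.32 in DMSO and 7.56, 7.60 and 7.68 with the drug. AACS rose by 0.24 ± 0.053 (SE, n = 3 per group, limma adjusted p = 0.0295), but failed whichever of the 6 arrays was left out, with limma adjusted p-values from 0.0517 to 0.0935. With each array centred on its median neither SCD (limma adjusted p = 0.0806) nor AACS (0.0925) passed.

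The enzymes that commit carbon to fatty acids did not pass. ACLY, which makes cytosolic acetyl-CoA from citrate, went from 11.70 ± 0.027 to 11.79 ± 0.065 (SD, n = 3 each), a change of 0.084. ACACA, the acetyl-CoA carboxylase of the synthesis route, had 7.94, 8.05 and 8.14 in DMSO and 8.24, 8.23 and 8.27 with the drug. Its groups did not overlap, and the change of 0.20 (interval 0.062 to 0.34) had a limma adjusted p = 0.0810. ACACB, the mitochondrial carboxylase that restrains fatty acid oxidation, had a change of 0.11 (interval -0.032 to 0.25), and ACACA minus ACACB was 0.093, with an interval from -0.099 to 0.28. FASN, the fatty acid synthase, read 7.58, 7.63 and 7.42 with DMSO and 7.53, 7.48 and 7.75 with the drug. The groups overlapped in part, with a change of 0.042 and an interval from -0.17 to 0.25.

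Of the chain elongation and further desaturation genes none passed the threshold. ELOVL6, which lengthens the products of FASN, had a change of 0.19 (interval 0.041 to 0.34). ELOVL5, which lengthens polyunsaturated chains, had -0.16 (interval -0.31 to -0.013). Neither passed, and their difference, ELOVL6 minus ELOVL5, was 0.35 with an interval from -0.0086 to 0.71. ELOVL1, which builds very long saturated chains, was higher on every treated array, with a change of 0.15 (interval 0.044 to 0.25, limma adjusted p = 0.0836). FADS2, a desaturase of polyunsaturated fatty acids, had the smallest standard error of the 31, 0.0383, with 9.29, 9.27 and 9.28 in DMSO and 9.29, 9.27 and 9.31 with the drug. The interval of its change ran from -0.081 to 0.10.

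Of the 24 synthesis genes that did not pass, 23 had a 95% interval within a 1.3-fold change in either direction, DHCR7 being the exception, and all 24 within 1.5-fold. Across 7 pairs of relatives or adjoining steps put to exact permutation tests (two-sided), no adjusted p was below 0.175, and none could be below 0.1 with 3 arrays against 3. The intervals of ACAT2 minus HMGCS1, FDPS minus IDI1 and SREBF1 minus SREBF2 did not hold 0. Other genes that overlap a synthesis gene in the RefSeq table and were tested did not pass: RAI1 (-0.015) and MIR33B (0.071) at SREBF1, MIR33A (0.12) at SREBF2, IDI2-AS1 (0.037) at IDI1, STARD4-AS1 (-0.15) at STARD4, and HMGB1P24 (-0.13) and C17orf78 (-0.0038) at ACACA. Of the 7 calls, those of ACAT2, FDPS and TM7SF2 stood whichever array was left out.

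**Figure D4:**
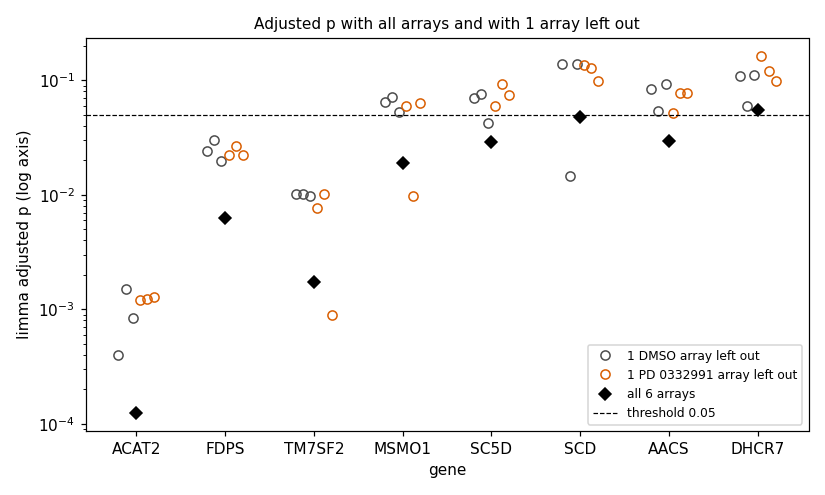
Limma adjusted p (y axis, log scale) of the 7 synthesis genes past the threshold and of DHCR7, with all 6 arrays (diamonds) and with 1 DMSO or 1 PD 0332991 array left out (open circles); the dashed line is the 0.05 threshold. All circles of ACAT2, FDPS and TM7SF2 lie below the line, while MSMO1, SC5D and SCD have 1 circle each below it and AACS and DHCR7 none.

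Other lipid genes, in 5 lists, showed calls in both directions. Of 78 tested, 14 rose and 7 fell, or 26.9%, beside 11.3% of all genes and 21.3% of genes at or above the median level, where 68 of the 78 lay. Their median change was 0.068, against 0.021 over all genes, and the counts of the single lists below are to be read against the same shares. Among 13 other sterol and isoprenoid synthesis genes 1 rose and 2 fell. Besides LBR, COQ2, which attaches the prenyl tail in ubiquinone synthesis, fell 1.57-fold (9.02, 9.09 and 9.01 to 8.42, 8.40 and 8.35). DHDDS, which draws on farnesyl diphosphate for dolichol, rose 1.25-fold (7.56, 7.45 and 7.54 to 7.81, 7.88 and 7.83). The sterol enzymes NSDHL (0.028) and EBP (-0.053) did not pass.

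In SREBP processing and sterol-regulated degradation, 2 of 10 rose and 2 fell. MBTPS1, the Golgi protease that makes the first cut in the SREBPs, rose by 0.24 on the log2 scale, and FBXW7, of the ligase that removes nuclear SREBPs among other targets, by 0.30. TMEM97, a sterol-responsive membrane protein, fell 1.56-fold and ERLIN1, which helps degrade sterol-regulated proteins, 1.19-fold. Of 14 genes of sterol uptake, storage and export, 3 rose and 2 fell. The exporter ABCA1 (0.32), the lysosomal lipase LIPA (0.29) and the sterol-binding protein OSBP (0.38) rose, and NPC1, which releases cholesterol from lysosomes, fell 1.35-fold, as did the caveolar protein CAV1, by 1.26-fold.

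In other fatty acid and glycerolipid synthesis 5 of 23 rose and none fell. ME1, the malic enzyme that supplies NADPH, rose 1.45-fold (11.52, 11.57 and 11.71 to 12.14, 12.04 and 12.23), the elongation enzyme HSD17B12 1.21-fold, DGAT1, which makes triglycerides, 1.20-fold, FADS3 1.19-fold and OXSM, of mitochondrial fatty acid synthesis, 1.18-fold. In fatty acid oxidation 3 of 18 rose and 1 fell. SLC25A20, the carnitine carrier (0.37), CPT2 (0.23) and DECR1 (0.21) rose, and the dehydrogenase HADH fell by 0.41 on the log2 scale. Of these 21 calls, 9 stood whichever array was left out: those of LBR, COQ2, DHDDS, TMEM97, FBXW7, NPC1, LIPA, ME1 and HADH. Leaving out 1 array brought the rises from 14 down to between 4 (without DMSO replicate 1 or 3) and 8 (without PD 0332991 replicate 1).

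**Figure D5:**
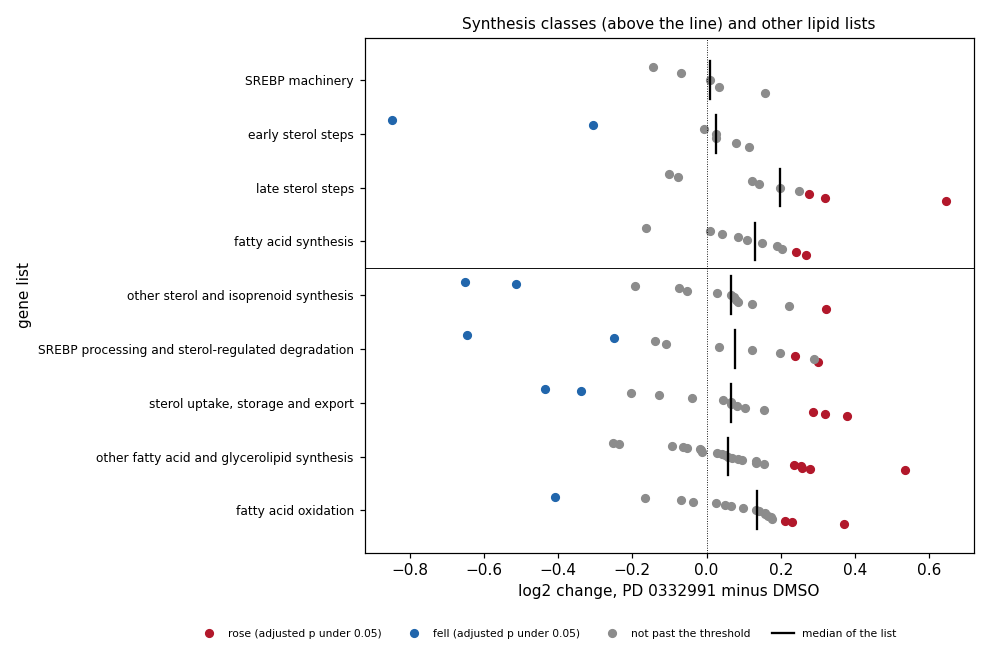
Log2 change with PD 0332991 (x axis) of each gene (points) in the 4 synthesis classes, above the line, and in the 5 other lipid lists, below it; the bars mark medians. The class medians run from 0.0093 for the SREBP machinery to 0.20 for the late sterol steps, and each of the lists below the line, apart from other fatty acid and glycerolipid synthesis, holds both rises and falls.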

How the data were processed

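Total RNA of 6 PC3-ML samples was hybridised to Affymetrix transcriptome arrays, each sample to its own. Values were deposited by array and by cluster, and were taken as log2 from their range (2.04 to 19.93). The submitters' processing notes name Expression Console; its version, background correction and normalization are not given in the sources used here. The labels' protocols name a NuGEN amplification system and another label an Affymetrix kit.

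Of 65535 clusters, 22685 named 1 gene, 1385 several and 41465 none here. Symbols were updated through Entrez identifiers (20487 matched). For genes with several clusters the brightest was used, giving 22375 genes with no filter on level. The group comparison used limma 3.58.1 under R 4.3.3 (1 mean per group, empirical Bayes, two-sided), with Benjamini-Hochberg adjustment over all genes and a threshold of 0.05; the step was tested on simulated data. Pair differences used a two-sided exact permutation test, with intervals at 95% from a linear model. The number of arrays limits the precision.

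Named genes are all synthesis genes, all genes of the other lipid lists past the threshold and tested genes overlapping a synthesis gene; Outside this rule, markers of division and cell type were named as checks, the untested TCP1, SOD2 and SOD2-OT1 as neighbours of ACAT2, and NSDHL and EBP after their values were seen. The genes and lists were chosen with earlier results of these data known. Promoter windows come from RefSeq. Alternatives were other scalings, a level filter, all clusters, cluster means, a trended spread, the replicate number as a block and each array left out; a threshold of 0.1 was added after seeing the data.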

Additional observations from a re-analysis of the deposited data

How the results depend on the processing

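The calls of ACAT2 and TM7SF2 stood under all 13 alternatives with their own fit, and that of FDPS under 12, the exception being the fit of all clusters. Rises over all genes went from 1247 to 759 with median centring, 343 with all clusters fitted, 786 with the replicate block and 1883 at a threshold of 0.1, and falls from 1284 to 641 with all clusters fitted. Rises among synthesis genes went from 5 to 1 with median centring, 1 with all clusters, 3 with the replicate block, 9 with dimmer genes left out and 9 at the threshold of 0.1, and falls from 2 to 1 with all clusters. The rises added with dimmer genes left out were those of SCAP, DHCR7, ACACA and ELOVL1. Quantile normalization gave 6 rises and 2 falls among synthesis genes. Rises in the other lipid lists went from 14 to 6 with median centring, 1 with all clusters and 6 with the replicate block. With single arrays left out, rises were 716 to 815 over all genes, 1 to 2 among synthesis genes and 4 to 8 in the other lists. Same-numbered samples did not deviate together (r = 0.02, -0.0065 and 0.04). These correlations showed no shared effect, but they cannot tell whether same-numbered samples were handled as pairs. SCD (limma adjusted p = 0.0738) and AACS (0.0865) were not called with the block. Signs turned for genes near 0, none of them called: with median centring INSIG2 (-0.019), MVK (-0.0034), PMVK (-0.0030) and FADS2 (-0.019), and with arrays left out INSIG2 (-0.028 to 0.054), PMVK (-0.077 to 0.13), IDI1 (-0.074 to 0.047) and FASN (-0.042 to 0.096). SC5D minus DHCR7 turned to -0.0034 with quantile normalization and ran from -0.014 to 0.081 with arrays left out. The cause of these shifts was not tested. The fit of all clusters differed both in its number of tests and in the clusters from which the shared spread was estimated. Fits with an array left out had fewer samples. Changes below about 0.3 on the log2 scale are near the limit of what 3 arrays per group resolved for these genes.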

Other observations

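FADS1, the desaturase next to FADS2, was covered by a cluster that the annotation assigns to FADS1 and the microRNA MIR1908 together, so it was left out of the comparison. That cluster read 9.01, 9.06 and 8.95 on the DMSO arrays and 8.97, 8.97 and 8.92 on the PD 0332991 arrays. The groups overlapped, and the difference of means was -0.056 on the log2 scale.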
